A study of Brassica rapa subsp. pekinensis with 10 samples.

Results

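Of the 47548 features measured on arrays of Chinese cabbage, 69 (0.145%) rose late in cold in the variety Shin-Hong while they stayed level or fell in the variety Man-Su. A feature is the set of probes that the array design gives to 1 transcript sequence, and its signal is given here as log2 intensity. The 69 were chosen by 2 conditions on the deposited values: both Shin-Hong cold 60 min and Shin-Hong cold 120 min lay at least 0.8 log2 units (1.74-fold) above Shin-Hong cold 15 min, and both Man-Su cold 60 min and Man-Su cold 120 min lay no more than 0.2 log2 units (1.15-fold) above Man-Su cold 15 min. The Shin-Hong condition alone held for 1.0% of all features and the Man-Su condition alone for 69.1%. These 6 arrays chose the members, so the rise in Shin-Hong and the lack of one in Man-Su describe the choice and are no finding. The 2 arrays at 30 min and the 2 arrays labelled normal took no part in it.

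The study hybridised total RNA of Brassica rapa subsp. pekinensis to one-colour arrays. Shin-Hong and Man-Su, both described as wild type, each had 1 array labelled normal and 1 array after 15, 30, 60 and 120 min of cold stress. No group had a replicate. The sources used here name neither the tissue nor the temperature nor how old the plants were, and without gene names the tissue could not be checked against marker genes.

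Plants sense falling temperature within minutes, and the first transcripts to move encode regulators such as the CBF transcription factors, which then switch on protective cold-response genes. Varieties of one crop can differ in how fast and how strongly these steps run. A feature that rises in one variety and stays level in another can be one that the second variety does not raise at all, or one that already stood at the higher level, so the starting level and the level reached belong beside the rise. The files give each feature an ID and no gene name, so no member can be assigned to a gene or pathway here.

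The labels of the normal arrays are in doubt. At 207 features every cold array of one variety was over 4-fold above every cold array of the other, and at 0 of the 207 did the arrays labelled normal keep that direction. None of the 69 members was among the 207. Each normal array is therefore set beside both varieties below. Single cold arrays also differed in background and in likeness to the other variety. Over the features that are not members and under 1 log2 unit apart between the varieties, the distance from the other cold arrays of its own variety towards the other variety was 53.9% for Shin-Hong cold 120 min and 46.6% for Man-Su cold 30 min. That distance in Shin-Hong cold 15, 30 and 60 min was -13.4%, -1.67% and -2.89%, so the 60 min array showed no such lean. Over the features more than 4 log2 units apart the distance was 2.61% for Shin-Hong cold 120 min and 0.556% for Man-Su cold 30 min. The largest there was 7.47%, for Man-Su cold 120 min. The cause of the lean was not tested. The random-sequence control, a measure of array background, read 5.42 to 5.74 in the Shin-Hong cold arrays and 5.23 to 5.63 in the Man-Su cold arrays, against 5.25 and 5.13 in Shin-Hong normal and Man-Su normal.

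Nearly all members were brighter than that background. Their mean level over the 10 arrays ran from 6.24 to 14.10 log2 units with a median of 11.70, a little under the median of 12.04 over all features. On all 10 arrays 68 of the 69 exceeded the random-sequence control. The exception read 4.99 in Shin-Hong cold 15 min, below the control, and 5.74 to 6.93 in the other Shin-Hong arrays, so its rise is not measured from a true starting level. All but 1 member were summarised over 7 probes, and that one over 4.

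In Shin-Hong most of the rise that the choice requires lay between the 30 and 60 min arrays, by the median. The median level of the 69 members was 10.49 at 15 min, 10.46 at 30 min, 11.78 at 60 min and 11.81 at 120 min. In Man-Su the median level was 11.95 at 15 min, 11.91 at 30 min, 11.86 at 60 min and 11.96 at 120 min. Shin-Hong thus started below Man-Su, stayed there at 30 min, and was close to it at 60 and 120 min.

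**Figure D1:**
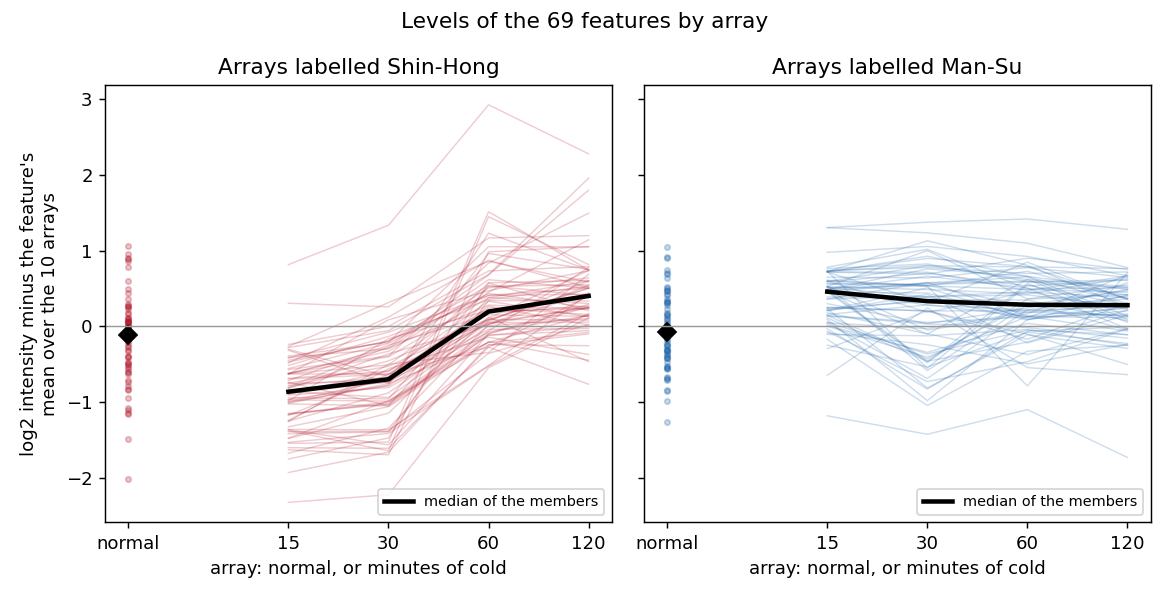
Levels of the 69 members in the Shin-Hong arrays (left) and the Man-Su arrays (right), as log2 intensity minus each feature's mean over the 10 arrays, for the normal array (points) and 15, 30, 60 and 120 min of cold (thin lines, 1 per member). Black lines and diamonds are medians. The Shin-Hong median is low at 15 and 30 min and steps up at 60 min, and the Man-Su median stays level, as the choice of members asks of the 15, 60 and 120 min arrays.

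The Shin-Hong 30 min array, which took no part in the choice, lay nearer to 15 min than to 60 min by the median. Shin-Hong cold 30 min differed from Shin-Hong cold 15 min by a median of 0.18 log2 units, with 56 members up and 13 down. Only 1 of the 69 had risen by 0.8 log2 units at 30 min (1.45% of members, 0.486% of all features), and 56 were within 0.4 of their 15 min level (81.2%, against 94.4% of all features). The next step, 60 min minus 30 min, was positive in all 69, with a median of 0.89 log2 units (1.85-fold) and a range of 0.15 to 3.09. Over all features that step was positive in 22630 of 47548, with a median of -0.02. Among the members it was the largest of the 3 steps in 58, a count given without a share over all features. It reached 0.8 log2 units in 40 members (58.0%, against 1.32% of all features). The choice favours each of these counts. It requires a rise from 15 to 60 min, and the 2 early arrays were alike in most features.

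From 60 to 120 min, a step whose direction the choice does not fix, the members went both ways. Shin-Hong cold 120 min was above 60 min in 44 members and below it in 25, with a median difference of 0.07 log2 units. Over all features it was above in 23218 and below in 24326, with a median difference of -0.01. In 47 members the 2 arrays were within 0.4 of each other (68.1%, against 57.6% of all features). A rise at every step from 15 to 120 min was seen in 34 members, and its share over all features is not given here. These values rest in part on the 120 min array that leaned towards Man-Su, and its part in them was not tested.

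**Figure D2:**
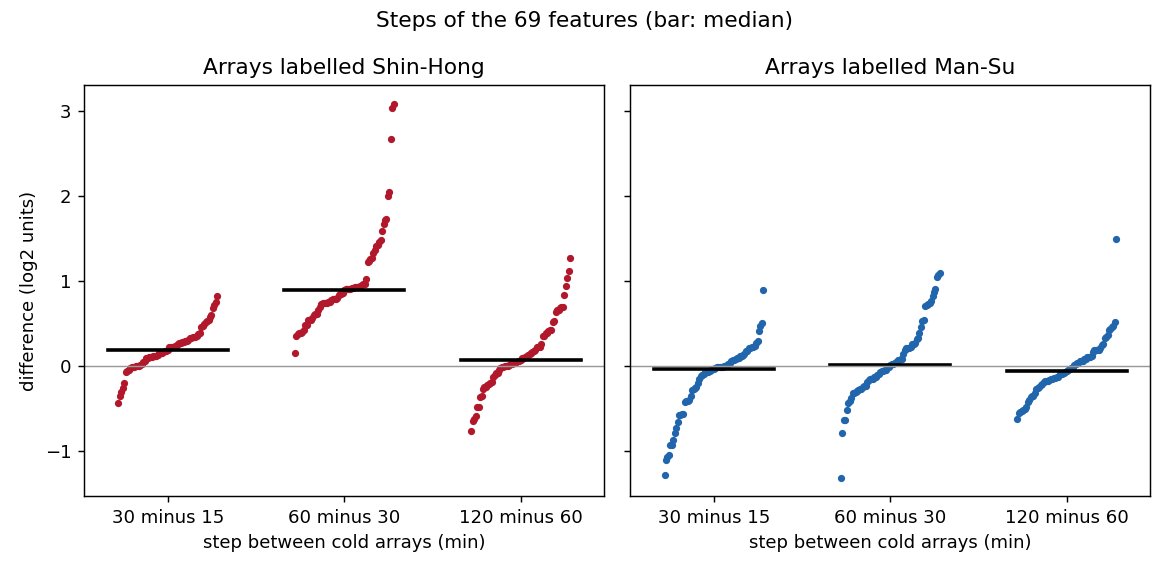
Differences between successive cold arrays (log2 units) for the 69 members in Shin-Hong (left) and Man-Su (right), each point 1 member in order of size, with the median as a bar. In Shin-Hong the step from 30 to 60 min has a median of 0.89 and is above 0 in every member, while the medians of the Man-Su steps lie between -0.06 and 0.01.

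Man-Su was nearly level at 30 min too. That array took no part in the choice of members, but the 15 min array it is set against did. Man-Su cold 30 min minus Man-Su cold 15 min had a median of -0.03 log2 units. It rose by 0.8 in 1 member (1.45%, against 1.9% of all features) and fell by 0.8 in 7 (10.1%, against 9.59%), both shares close to those over all features. The 4 Man-Su cold arrays spanned a median of 0.44 log2 units per member, against 0.41 over all features. All of these 4 arrays but the 30 min array were used in the choice. Shin-Hong rose by a median of 1.03 log2 units at 60 min and 1.26 at 120 min, a rise that the choice requires.

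Most members started lower in Shin-Hong. At 15 min 50 of the 69 were at least 0.8 log2 units lower in Shin-Hong than in Man-Su (72.5%), 17 were within 0.8 (24.6%) and 2 were at least 0.8 higher (2.9%). Over all features these shares were 12.9%, 77.9% and 9.25%. The median difference, Shin-Hong minus Man-Su, was -1.30 log2 units. Both 15 min arrays are in the choice of members, which favours a low Shin-Hong and a high Man-Su value, so nothing is read from the gap at 15 min alone.

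A gap in the same direction was present at 30 min, in arrays that took no part in the choice. Those arrays were close to the 15 min arrays that did. Over all features the 2 were within 0.4 of each other in 94.4% in Shin-Hong and 71.7% in Man-Su. A gap chosen at 15 min can therefore carry over to 30 min, and the values are given as a description. There 40 members were at least 0.8 log2 units lower in Shin-Hong (58.0%, against 5.47% of all features) and 2 at least 0.8 higher (2.9%, against 7.91%). The median of Shin-Hong minus Man-Su was -0.94 log2 units over the members and 0.01 over all features. Of the 50 that started lower, 47 were still lower at 30 min. Man-Su cold 30 min is the array that leaned towards Shin-Hong over the features that are not members, and its part in the members' values was not tested. With 1 array per group, this difference has no replicate check and no test.

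At 60 and 120 min the gap was smaller, as the choice of members requires: it asks for a rise in Shin-Hong and for next to none in Man-Su. What it does not fix is the side on which Shin-Hong ended. The median of Shin-Hong minus Man-Su was -0.20 log2 units at 60 min, with Shin-Hong higher in 28 members and lower in 41. At 120 min it was 0.04, with 36 higher and 33 lower. Before the step, Shin-Hong cold 30 min lay below all 4 Man-Su cold arrays in 51 members (73.9%, against 33.6% of all features). After it, Shin-Hong cold 60 min did so in 33 (47.8%, against 35.3%) and Shin-Hong cold 120 min in 25 (36.2%, against 30.2%).

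Most features with a low start did not rise late. Over the whole array 6117 features were at least 0.8 log2 units lower in Shin-Hong than in Man-Su at 15 min, and 205 of them (3.35%) rose by 0.8 at both 60 and 120 min in Shin-Hong, against 1.0% of all features. Of these 205, 50 were members.

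Whether Man-Su already stood at the level that Shin-Hong reached was read with a margin of 0.4 log2 units (1.32-fold), with the mean of Shin-Hong cold 60 and 120 min as the level reached. Man-Su cold 15 min was at or above that level, less the margin, in 49 of the 69 members (71.0%, against 81.9% of all features). Man-Su cold 30, 60 and 120 min were so in 43, 48 and 46 members (62.3%, 69.6% and 66.7%, against 85.3%, 81.8% and 83.4%). All 4 Man-Su cold arrays met it in 40 members (58.0%, against 70.1%). These shares are below those over all features, and the cause was not tested. In 15 members no Man-Su cold array came within the margin (21.7%, against 6.83%). With the 60 min array alone as the level reached, Man-Su cold 15 min met it in 50 of the same members. Where the 60 min arrays alone also chose the features, the share was 51.1% of 409.

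Set against the mean of the 4 Man-Su cold arrays, the members parted about evenly by where Shin-Hong ended. Shin-Hong ended more than 0.4 log2 units below Man-Su in 23 members, within 0.4 in 22 and more than 0.4 above in 24. With the 60 min array alone as the end, each of these classes held 23. These counts depend on the margin of 0.4 and on the rise that the choice requires, so they are given as a description. With the mean of both late arrays as the end, the quartiles of Shin-Hong minus Man-Su were -0.45 and 0.58 log2 units. Over all features they were -0.33 and 0.23, and the shares of the 3 classes over all features are not given here.

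**Figure D3:**
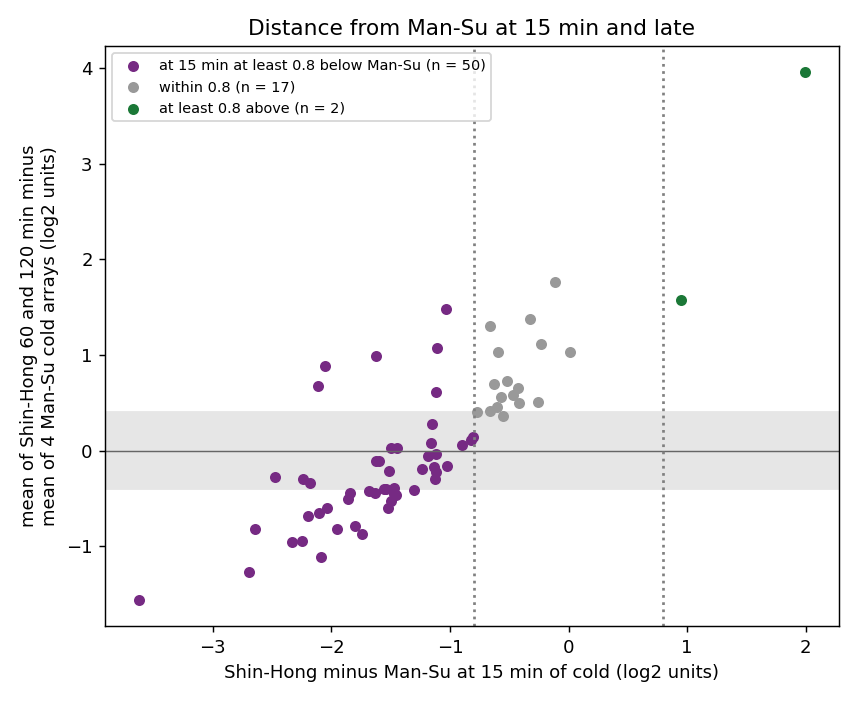
Shin-Hong minus Man-Su at 15 min (x axis, log2 units) and the mean of Shin-Hong cold 60 and 120 min minus the mean of the 4 Man-Su cold arrays (y axis, log2 units), 1 point per member. Dotted lines mark 0.8 below and above Man-Su, and the grey band marks 0.4 to either side of Man-Su. Of the 50 members that started at least 0.8 lower, 44 end in or below the band, and all but 1 of the 17 that started within 0.8 end above it. The axes share Man-Su cold 15 min, and a rise of at least 0.8 is required of every member, so part of this order is built in.

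The 23 members that started and ended below Man-Su were bright by the median. Their mean level over the 10 arrays had a median of 12.56 log2 units, against 12.04 over all features. It ran from 6.24 to 13.92, and the member that fell below the random-sequence control was among the 23. Their median level was 10.91, 11.18, 12.46 and 12.67 log2 units in Shin-Hong at 15, 30, 60 and 120 min, against 13.46, 13.48, 13.31 and 13.35 in Man-Su. Their median gap, Shin-Hong minus Man-Su, was -1.84 log2 units at 15 min, -1.63 at 30 min, -0.80 at 60 min and -0.46 at 120 min. The class is defined by a low start and a low end, so that the gap narrowed and stayed is given by the choice. All 23 were below Man-Su at 15, 30 and 60 min, and 22 were at 120 min.

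The 21 members that started below Man-Su and ended within 0.4 of it were dimmer by the median. Their mean level over the 10 arrays had a median of 10.69 log2 units and ran from 8.03 to 14.10. Their median level was 10.00, 10.06, 10.80 and 11.43 log2 units in Shin-Hong at the 4 times, against 11.15, 11.39, 11.26 and 10.88 in Man-Su. Their median gap was -1.19 log2 units at 15 min, -0.89 at 30 min, -0.22 at 60 min and -0.02 at 120 min.

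In 6 members Shin-Hong started below Man-Su and ended above it. Their median level was 10.09, 10.07, 12.88 and 12.27 log2 units in Shin-Hong, against 11.87, 11.64, 11.09 and 11.99 in Man-Su. All 6 were above Man-Su at both 60 and 120 min.

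Rises were ranked by the smaller of the 60 and 120 min differences from 15 min. The member with the largest rise by this measure, Brapa_ESTC039504, belongs to these 6. In Shin-Hong it read 11.55 log2 units in the normal array and 10.53, 10.46, 13.14 and 13.21 at 15, 30, 60 and 120 min of cold. In Man-Su it read 12.67 in the normal array and 12.64, 12.43, 12.37 and 12.55 in cold. The early Shin-Hong cold values lay below all other arrays and the late ones above all of them. Picking the member with the largest rise favours such an order. The Shin-Hong value was 6.11-fold higher at 60 min than at 15 min and 6.42-fold higher at 120 min.

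The second largest rise, in Brapa_ESTC000800, ran alike in Shin-Hong, with 10.66 log2 units in the normal array and 9.74, 9.76, 12.80 and 12.03 in cold. In Man-Su it read 11.76 in the normal array and 11.80, 11.82, 10.50 and 12.00 in cold. Shin-Hong was 8.31-fold higher at 60 min than at 15 min and 4.89-fold higher at 120 min. Its Man-Su value dipped at 60 min alone, so the crossing at that time rests on 1 array of each variety, and at 120 min the varieties were level.

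The next 3 in that order are described without their ID. The third read 10.33, 10.06, 13.15 and 12.52 in Shin-Hong cold, against 11.95, 11.91, 11.53 and 12.01 in Man-Su cold, and so passed above Man-Su as well. The fourth, a bright feature, read 11.97, 12.24, 14.29 and 13.92 in Shin-Hong cold, against 14.45, 14.52, 14.33 and 14.24 in Man-Su cold, and came up to Man-Su. The fifth read 10.24, 10.34, 12.02 and 12.67 in Shin-Hong cold, against 13.86, 13.93, 13.98 and 13.84 in Man-Su cold. It stayed over 1 log2 unit below Man-Su even at 120 min. These 5 members thus include all 3 outcomes.

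Falls in Man-Su that held at both late times were small among the members. At 60 min alone the lowest value, Man-Su cold 60 min minus 15 min, was -1.30 log2 units. Both late Man-Su arrays lay below the 15 min array in 26 members (37.7%, against 36.2% of all features), and in 0 members were both at least 0.8 log2 units lower (0.141% of all features). Ranked by the smaller of the 2 late falls from 15 min, the first member was Brapa_ESTC031643. It read 11.97 log2 units in Man-Su normal and 12.51, 11.47, 12.17 and 11.99 in Man-Su cold. In Shin-Hong it read 12.16 in the normal array and 11.48, 12.01, 12.96 and 14.08 in cold, a rise at every step. Its 2 late Man-Su values were 0.34 and 0.52 log2 units below the 15 min value.

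The second, Brapa_ESTC028528, read 9.23 log2 units in Shin-Hong normal and 9.63, 9.32, 10.75 and 10.97 in Shin-Hong cold. In Man-Su it read 9.51 in the normal array and 11.15, 11.39, 10.86 and 10.88 in cold. Here both normal arrays were near the early Shin-Hong cold level, and all Man-Su cold arrays were over 1 log2 unit above both normal arrays.

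The next 3 fell by less on the same measure, the smaller of the 2 late falls, with changes of -0.21, -0.20 and -0.20 log2 units. The larger of the 2 late falls did not enter this order and does not follow it. The third read 9.57, 9.55, 11.03 and 11.06 log2 units in Shin-Hong cold, against 10.69, 10.41, 10.14 and 10.48 in Man-Su cold, and crossed above Man-Su by 60 min. The fourth, among the brightest members, read 12.10, 12.11, 13.14 and 13.52 in Shin-Hong cold, against 14.80, 14.73, 14.59 and 14.27 in Man-Su cold. The fifth read 11.90, 12.24, 13.51 and 12.92 in Shin-Hong cold, against 13.94, 13.93, 13.65 and 13.75 in Man-Su cold, with 14.17 in Shin-Hong normal and 13.85 in Man-Su normal. The fourth and the fifth stayed below Man-Su at every time, and in the fifth the 2 early Shin-Hong values were the lowest of the 10 arrays.

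**Figure D4:**
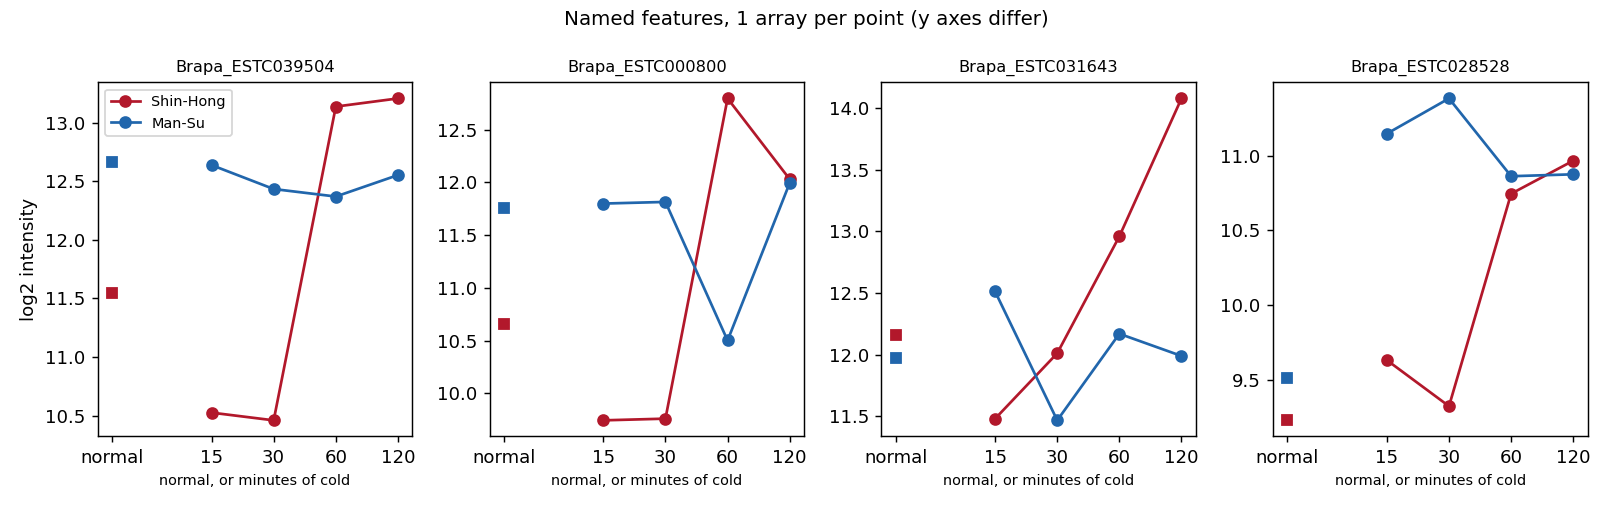
Log2 intensity of the 4 members named by ID in each array, with Shin-Hong in red and Man-Su in blue, squares for the normal arrays and circles for 15, 30, 60 and 120 min of cold. Each point is 1 array and the y axes differ. In the first panel Shin-Hong is at 10.46 at 30 min and 13.14 at 60 min, the later value above the Man-Su cold values of 12.37 to 12.64.

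The 17 members that started within 0.8 log2 units of Man-Su ended above it with 1 exception. Their median level was 9.69, 9.68, 10.67 and 10.70 log2 units in Shin-Hong at the 4 times, against 9.99, 9.79, 9.84 and 9.91 in Man-Su. All 17 were higher in Shin-Hong than in Man-Su at 60 min, by a median of 0.54 log2 units, and at 120 min, by a median of 0.66. By the margin of 0.4, Man-Su cold 15 min already stood at the level reached in 4 of the 17 and below it in 13. Man-Su cold 30 min was below Man-Su cold 15 min in 14 of the 17, by a median of 0.36 log2 units over all 17, in the array that leaned towards Shin-Hong. The largest rise among them read 8.09, 8.27, 9.53 and 9.53 in Shin-Hong cold, against 8.41, 7.75, 8.01 and 8.44 in Man-Su cold. The second read 8.18, 8.36, 9.59 and 10.25 in Shin-Hong cold, against 8.85, 7.77, 8.85 and 9.01 in Man-Su cold. The third read 12.28, 12.57, 13.40 and 13.53 in Shin-Hong cold, against 13.05, 13.18, 13.03 and 13.01 in Man-Su cold. In all 3 the Shin-Hong values at 60 and 120 min lay above all 4 Man-Su cold values.

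The 2 members that started above Man-Su moved further from it. The first read 9.05, 9.57, 11.15 and 10.51 log2 units in Shin-Hong cold, against 7.05, 6.81, 7.13 and 6.50 in Man-Su cold, and 6.22 in Shin-Hong normal and 8.32 in Man-Su normal. The second read 9.67, 9.62, 10.53 and 10.56 in Shin-Hong cold, against 8.72, 9.61, 8.82 and 8.73 in Man-Su cold, with the varieties level at 30 min. It was the member in which Man-Su had risen by 0.8 at 30 min.

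The normal arrays place the early Shin-Hong values below the level without cold. The median over the members was 10.90 log2 units in Shin-Hong normal and 11.55 in Man-Su normal, and the median difference per member was -0.02. Shin-Hong cold 15 min lay below both normal arrays in 55 members (79.7%, against 38.6% of all features). Shin-Hong cold 30 min did so in 48 (69.6%, against 36.6%). There neither the cold array nor the normal arrays had a part in the choice, but that cold array was close to Shin-Hong cold 15 min, which did. At 15 min 26 members were at least 0.8 log2 units below both normal arrays (37.7%, against 4.54%). At 30 min 22 members were at least 0.8 log2 units below both normal arrays (31.9%, against 2.92%) and 2 at least 0.8 above both (2.9%, against 5.9%). Because both normal arrays are used together, these counts do not depend on which variety label each carries.

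Both early Shin-Hong arrays were the lowest of all 10 in 39 members (56.5%, against 6.8% of all features). The choice of members favours this, since it puts Shin-Hong cold 15 min below the late Shin-Hong arrays. Over all features Shin-Hong cold 15 and 30 min were within 0.4 of each other in 94.4%. Against the mean of the normal arrays the median member stood at -0.75 log2 units at 15 min, -0.60 at 30 min, 0.24 at 60 min and 0.58 at 120 min in Shin-Hong. In Man-Su it stood at 0.53, 0.16, 0.42 and 0.34. The medians over all features lay between 0.00 and 0.09 in these 8 arrays.

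The late Shin-Hong level was mostly above normal. Shin-Hong cold 60 min exceeded both normal arrays in 41 members (59.4%, against 37.8% of all features) and Shin-Hong cold 120 min in 47 (68.1%, against 39.0%). At least 0.8 log2 units above both were 11 members at 60 min (15.9%, against 5.22%) and 15 at 120 min (21.7%, against 6.89%). Man-Su cold 15 min exceeded both normal arrays in 41 members (59.4%, against 42.3%), by at least 0.8 in 13 (18.8%, against 4.0%). Shin-Hong cold 60 and 120 min and Man-Su cold 15 min are among the arrays that chose the members.

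Few members lay that far below normal in the other arrays. In Shin-Hong, 2 were at least 0.8 log2 units below both normal arrays at 60 min (2.9%, against 2.79% of all features) and 3 at 120 min (4.35%, against 7.22%). In Man-Su, 0 were at 15 min (2.66% of all features), 1 at 30 min (1.45%, against 5.64%), 0 at 60 min (2.84%) and 0 at 120 min (2.38%).

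**Figure D5:**
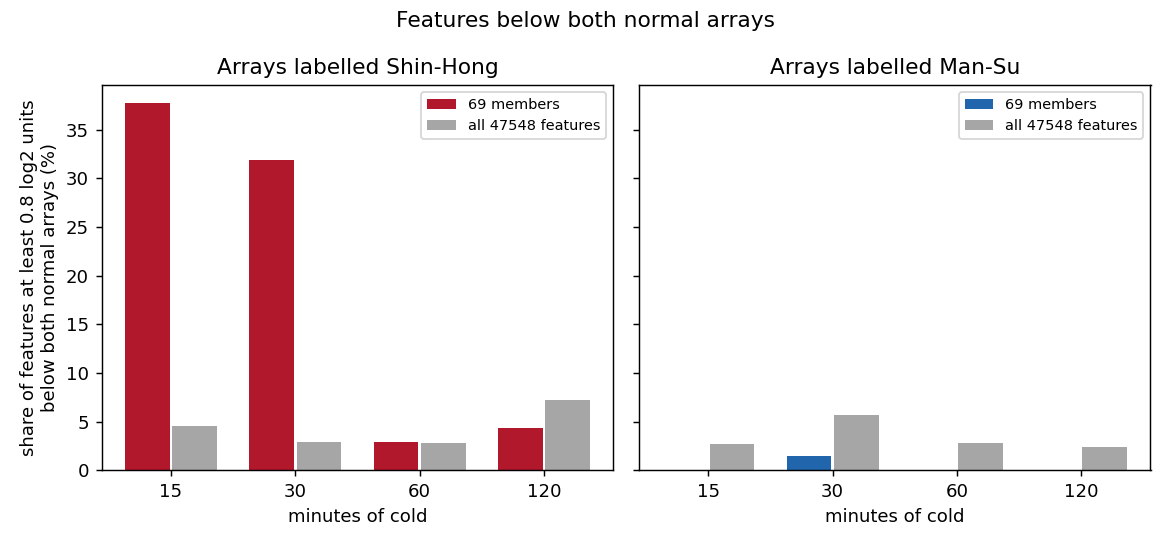
Share of features (%) at least 0.8 log2 units below both normal arrays at 15, 30, 60 and 120 min of cold, in Shin-Hong (left) and Man-Su (right), for the 69 members (coloured) and all 47548 features (grey). In Shin-Hong the members' share is 37.7% at 15 min and 31.9% at 30 min and then 2.9% and 4.35%, and in Man-Su it is 1.45% at 30 min and 0 at the other times.

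The normal arrays differed little from each other in most members. With the labels as given, Shin-Hong normal was at least 0.8 log2 units lower than Man-Su normal in 13 members (18.8%, against 7.15% of all features), within 0.8 in 53 (76.8%, against 86.2%) and at least 0.8 higher in 3 (4.35%, against 6.66%). Of the 50 members that started lower in Shin-Hong at 15 min, 27 were lower in Shin-Hong normal and 23 higher, with a median difference of -0.01 log2 units. Exchanging the labels of the normal arrays would turn the sign of that median and leave it as small. In the 6 members that started below and ended above Man-Su, Shin-Hong normal was lower in 5, with a median difference of -1.11 log2 units, and with the labels exchanged it would be higher in 5 by as much.

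The levels reached late were also set beside the normal arrays. Shin-Hong normal was no more than 0.4 log2 units below the level reached in 33 members (47.8%, against 74.1% of all features), and Man-Su normal in 34 (49.3%, against 78.3%). In about as many members, then, the late Shin-Hong level was over 0.4 above a given normal array as was within the margin of it or below it.

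The difference between the varieties over the cold series as a whole is another contrast than the time differences that chose the members, but 6 of its 8 arrays are the same, and its residual holds the time courses that were chosen. The members' calls are therefore given as a description. The limma fit over the 8 cold arrays, blocked by time and with 3 degrees of freedom left, called 10612 of all features at an adjusted p under 0.05 (22.3%), 11.5% lower and 10.8% higher in Shin-Hong. Of the members it called 22 lower in Shin-Hong (31.9%) and 2 higher (2.9%). All 22 had started below Man-Su, 21 of them also ended below it, and their differences ran from -2.59 to -0.68 log2 units. The standard errors of these 22 were 0.19 to 0.43 and the adjusted p-values of limma 0.00993 to 0.0487. The 2 called higher were those that had started above Man-Su, by 3.19 ± 0.35 and 1.13 ± 0.30 log2 units (SE, limma adjusted p = 0.00383 and 0.0428). The median difference was -0.60 log2 units over the members and -0.05 over all features.

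For the 4 members named by ID the varieties did not differ past the threshold over the whole cold series. The difference, Shin-Hong minus Man-Su, was -0.67 ± 0.55 log2 units for Brapa_ESTC039504 and -0.45 ± 0.71 for Brapa_ESTC000800 (SE, limma adjusted p = 0.397 and 0.668). It was 0.60 ± 0.45 for Brapa_ESTC031643 and -0.90 ± 0.37 for Brapa_ESTC028528 (SE, limma adjusted p = 0.352 and 0.122), and the last was called with the control level of each array as a covariate (limma adjusted p = 0.0187). With 1 cold array left out, the difference ran from -1.14 to -0.18 for Brapa_ESTC039504, from -1.36 to 0.092 for Brapa_ESTC000800, from 0.10 to 1.14 for Brapa_ESTC031643 and from -1.23 to -0.51 for Brapa_ESTC028528. A feature that is low at 2 times and high at the other 2 has a wide residual in this fit, and the choice of members asks for such courses. The fifth in the order of rises, which stayed below Man-Su throughout, was called lower, by -2.59 ± 0.43 log2 units (SE, limma adjusted p = 0.0124).

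The calls leaned on single times, over all features as among the members. In this fit, leaving out 1 array also takes out its time, because the array left at that time has no partner. Without either 15 min array 1695 features were called and 0 members lower, and without either 60 min array 1681 features and 1 member. Without either 30 min array 11551 features and 13 members were so called, and without either 120 min array 12642 and 27.

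The difference between the varieties in slope over cold time is the contrast that the choice used, and it is given as a description. The members' slopes differed by 0.23 to 1.10 log2 units per doubling of time, Shin-Hong minus Man-Su, with a median of 0.50. The limma fit called 0 of the 69 members and 0 of all features (0.0%), with a smallest adjusted p of 0.975 among the members. At an unadjusted p under 0.05 there were 53 members and 2119 features (4.46%). The different time courses of the varieties that define these 69 features are thus not past the threshold as single features in the fit over the whole array.

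Features that rose late in both varieties behaved otherwise at the start. Of the 477 features that rose by 0.8 at both late times in Shin-Hong, 109 (22.9%) also did so in Man-Su, 69 (14.5%) were the members and 299 lay between. In the 109 the median of Shin-Hong minus Man-Su at 15 min was -0.12 log2 units, against -1.30 in the members, and at 30 min it was -0.32, against -0.94. The 109 had also moved by 30 min in Shin-Hong, with a median of 0.59 log2 units above 15 min, against 0.18 in the members. Both sets were chosen on the 15 min arrays, so the differences are descriptions. With the varieties exchanged, the same conditions chose 14 features (0.0294%).

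The edge of the set is not sharp. The smallest rise inside was 0.801 log2 units and the largest outside, among features level in Man-Su, was 0.797. Within 0.1 of that threshold there were 25 members and 31 features outside. The largest late change in Man-Su was 0.196 inside and 0.201 outside, with 26 members and 24 features outside within 0.1.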

How the data were processed

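Total RNA of 10 samples was hybridised to one-colour (Cy3) NimbleGen arrays, per the labels' protocols. The deposited files hold linear intensity per feature, for which the submitters' processing notes name RMA, the robust multi-array average. The sources used here name no software or version for it, nor the arrays that entered it together. The number of probes per feature comes from the file headers. The intensities were taken to log2 with no further normalization, since the members were chosen on the deposited values. The 6 control features stayed out of the tests. No ID matched the gene name table. Tests used limma 3.58.1 in R 4.3.3 over all 47548 features, adjusted by Benjamini-Hochberg, with a threshold of 0.05. They were also run on simulated data with the same independent noise in every feature and no lean of single arrays. That run checked the code and does not bear on the calls made here. With 1 array per group the spread comes from the variety-by-time differences and, as the labels do not say whether arrays come from separate plants, may be technical, and the number of arrays limits precision. The members and classes were chosen with earlier results of these data known. Named were the 2 members with the largest rise in Shin-Hong and the 2 with the largest fall in Man-Su among those above the random-sequence control on all arrays. Described without ID are the next 3 by rise and the next 3 by fall. So are the 3 largest rises among members starting within 0.8 of Man-Su and the 2 members starting above it. Alternatives were quantile normalization, other thresholds, a brightness filter, a control-level covariate and leaving out arrays. The 60 or 120 min arrays alone were added after seeing the data.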

Additional observations from a re-analysis of the deposited data

Results flagged for a closer look

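In 26 members both late Shin-Hong arrays lay above the 15 min array of that variety and both late Man-Su arrays lay below theirs, so the varieties moved in opposite directions. The difference was not tested apart from the slope fit, and the choice of members fixes the direction in Shin-Hong. The share in Man-Su, 37.7%, is close to the 36.2% of all features.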

How the results depend on the processing

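Quantile normalization gave 68 members, 60 of them among the 69, and the brightness filter 68. A rise of at least 1 gave 30 and a Man-Su change of at most 0 gave 26. The 60 min arrays alone chose 409 features and the 120 min arrays alone 865. With the 60 min arrays alone, 44.7% started at least 0.8 below Man-Su, 32.0% were at least 0.8 lower in Shin-Hong at 30 min, 18.8% had Shin-Hong cold 30 min at least 0.8 below both normal arrays, and Man-Su was at the level reached in 51.1% at 15 min and 43.0% at 30 min. With the 120 min arrays alone, the shares at least 0.8 lower in Shin-Hong at 30 min, in Shin-Hong cold 30 min below both normal arrays and in Shin-Hong normal below Man-Su normal were 41.3%, 11.1% and 5.32%. The last was 33.3% with a rise of at least 1 and 4.35% with the normal labels exchanged. Man-Su was at the level reached in 84.1% (15 min) and 73.9% (30 min) with a margin of 0.8 and in 49.3% (30 min) with a margin of 0. With a Man-Su change of at most 0, the share risen by 0.8 at 30 min was 0.0%. With the control level as a covariate limma called 3987 features between the varieties, and 1 member higher in Shin-Hong. Leaving out 1 array, which takes its time out of the fit between the varieties, gave 1681 to 12642 features, 0 to 27 members lower and 1 to 2 higher. The lowest counts, 1681 and 1695, came without a 60 or a 15 min array. With 1 array left out the difference of Brapa_ESTC000800, not called, ran from -1.36 to 0.092, above 0 without a 15 or a 30 min array, and the other named members kept their sign. With the covariate the differences were -1.69 for Brapa_ESTC039504, -1.45 for Brapa_ESTC000800, 0.18 for Brapa_ESTC031643 and -1.75 for Brapa_ESTC028528. The cause of each moved value was not tested. No paired analysis was possible because groups of 1 array share fewer than 2 replicate numbers; the block in the variety fit is time. All of these rest on 1 array per group, which limits every value.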
